A study of Caenorhabditis elegans with 4 samples.

Results

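MRE-11 peaks on the X chromosome of Caenorhabditis elegans were taken from 3 deposited peak lists by their sequence name. Every peak listed on X was a member, whatever its score. The choice of X was made with earlier results of these data known. There were 408 such peaks of 6485 in all, of which 169 came from the list of ChIP replicate 1, 51 from the list of ChIP replicate 2 and 188 from a list for the whole series. The study was a ChIP-seq experiment (immunoprecipitation of crosslinked chromatin followed by sequencing) with 2 libraries made with an affinity-purified rabbit polyclonal antibody against MRE-11 and 2 libraries of input DNA. All libraries came from adult hermaphrodites of the mutant strain fem-2(b245), listed with genotype fem-2(b245)III and as young adults that contain a germline. The listed temperature was 20 °C. The growth protocol describes gravid adults, and no other genotype was compared here. Whole worms were frozen and ground before crosslinking in EGS and formaldehyde, so the peaks do not separate germline from somatic nuclei. Separate worm cultures for the replicates are not stated in the labels.

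MRE-11 is the nuclease of the MRE11-RAD50-NBS1 complex, which binds and trims the ends of DNA double-strand breaks, and in this worm it also takes part in making and repairing the breaks of meiosis. The product of fem-2 is a phosphatase that promotes male development and sperm formation. The X chromosome is largely silent in the germline of this species. In somatic cells of hermaphrodites, the dosage compensation complex, which contains a condensin, is recruited at discrete sites along both X chromosomes and spreads from them. The deposited lists hold MRE-11 peaks only, and overlap with those recruitment sites was not tested.

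Positions are on WormBase WS220, as the file headers give it, and X ran to at least position 17718689, the last base of its last peak. Each peak has a score from the authors' caller, whose scale is not named in the files. Scores of the replicate lists started at 50.01 and 50.02 and piled up at 3100, whereas scores of the series-wide list ran from 1.30 to 54.34, so their sizes were not compared between these lists. Read depth is unknown, and a stretch of X without a peak is one where none was listed. A peak was called supported if at least 1 bp of it overlapped a peak in each of the other 2 lists. Overlapping X peaks of any list were joined into a locus. No p-value is given, because the 2 replicate lists form 1 group, peaks of 1 list are not replicates, and the series-wide list cannot be taken as independent of them.

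Most X peaks of replicate 2 recurred in both other lists, and most X peaks of replicate 1 and of the series-wide list did not. In replicate 2, 48 of 51 X peaks were supported (94.1%, exact Clopper-Pearson 95% interval 83.8 to 98.8%), against 93.5% of the peaks of that list on all chromosomes. In replicate 1, 47 of 169 X peaks were supported (27.8%, 21.2 to 35.2%), against 48.9% over all chromosomes. In the series-wide list, 65 of 188 X peaks were supported (34.6%, 27.8 to 41.8%), against 59.5%. The replicate 2 share on X was therefore near its background, and the other shares lay below theirs. These intervals take peaks as independent and cover counting error only.

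The 408 peaks formed 201 loci on X, and 47 of them (23.4%) were present in all 3 lists, against 45.4% of the 2632 loci on all chromosomes. The largest class was another one. It held 81 loci with replicate 1 and series-wide peaks and no replicate 2 peak. A further 40 loci were listed in replicate 1 alone and 30 in the series-wide list alone. The remaining 3 loci held the 3 unsupported replicate 2 peaks, of which 1 overlapped replicate 1, 1 overlapped the series-wide list and 1 stood alone. The count of loci in all 3 lists rested on replicate 2. Without its list, 128 loci were shared by replicate 1 and the series-wide list. These were 64.0% of the X loci of those 2 lists, against 74.4 ± 2.17% (SD, n = 5) on the autosomes. Without the replicate 1 list, 49 loci were shared by the other 2, or 28.3%, against 52.2 ± 4.48% (SD, n = 5). Shares of the classes with 1 or 2 lists on the autosomes are not given here.

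The overlaps were far from the limit of the rule. All 65 supported series-wide peaks lay wholly inside a replicate 1 peak and wholly inside a replicate 2 peak, and the supported replicate 2 peaks overlapped replicate 1 by 1010 bp or more. The smallest overlap among series-wide peaks was 152 bp, which is the whole of the peak at X 1884862 to 1885013 with a score of 3.44. Just outside the rule, 92 series-wide X peaks overlapped a replicate 1 peak only. The nearest of them to a replicate 2 peak was X 16934321 to 16934531, with a score of 5.04, at a gap of 412 bp, and 8 lay within 5 kb of one.

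**Figure D1:**
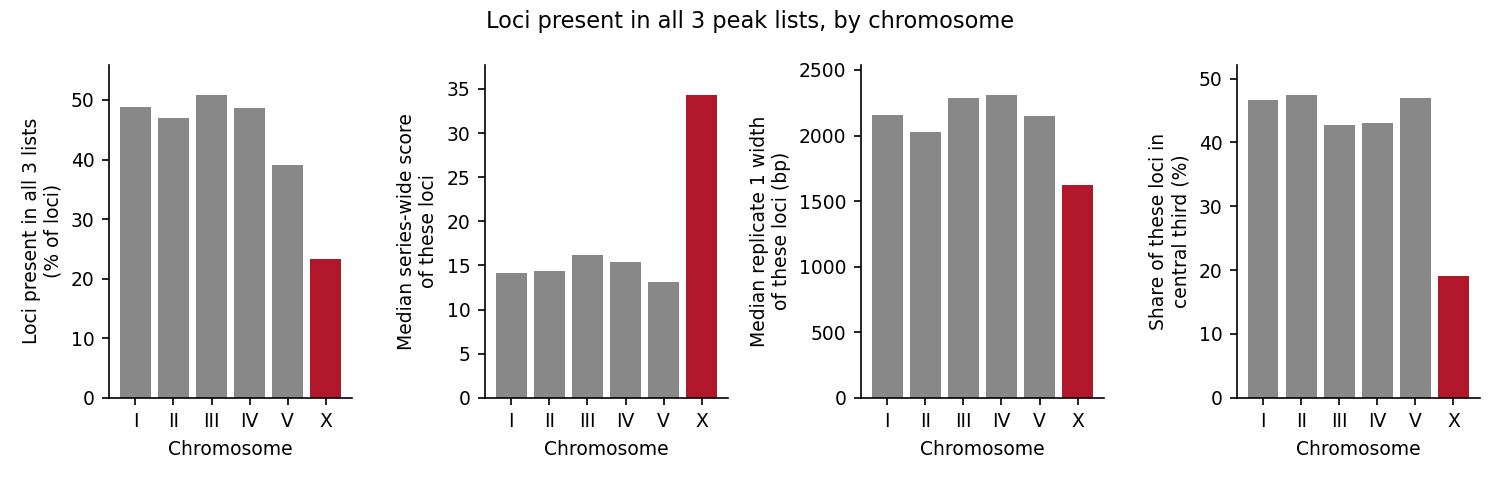
Bars give, for each chromosome, the share of loci present in all 3 lists (%), the median series-wide score of those loci, their median replicate 1 width (bp) and the share of them in the central part of the chromosome (%). X, in red, has the lowest share (23.4%), the highest median score (34.3), the smallest width (1620 bp) and the lowest central share (19.1%).

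Among loci present in all 3 lists, those on X had higher median scores and narrower replicate peaks than those on the autosomes. The median of the highest series-wide score per locus was 34.3 on X, against 14.7 ± 1.18 (SD over the medians of 5 autosomes), with the autosomes between 13.2 and 16.2. In replicate 2 the median was 1251 on X, against 327 ± 49.2 (SD, n = 5), and in replicate 1 it was 1170.0, against 584 ± 69.5 (SD, n = 5). X lay outside the range of the 5 autosomes in each list. This order needed the replicate 2 list. Without it, the 128 X loci shared by replicate 1 and the series-wide list had a median series-wide score of 8.87, against 10.7 ± 0.91 (SD, n = 5), and a median replicate 1 score of 175, against 378 ± 38.6 (SD, n = 5). Most X loci lacked a replicate 2 peak, and the 81 with peaks of the other 2 lists had a median series-wide score of 6.31.

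The widths ran the other way in the replicate lists. The replicate 1 peak of these loci had a median width of 1620 bp on X, against 2185 ± 114 bp (SD, n = 5), and the replicate 2 peaks covered 1833 bp, against 2341 ± 91.9 bp (SD, n = 5). The series-wide peaks of a locus together covered more on X, at 722 bp against 568.5 ± 38.7 bp (SD, n = 5). Taken singly, supported series-wide peaks were not wider on X. Their median was 367 bp (interval 340 to 501) on X and 401 bp (382 to 419) on the autosomes. Without replicate 2 the series-wide order per locus turned, to 286.5 bp on X against 419 ± 36.7 bp (SD, n = 5). The replicate 1 width stayed lower on X, at 1278 bp against 1897 ± 114 bp (SD, n = 5). Loci on X were also simpler, since 40 of 47 (85.1%) held a single series-wide peak, against 73.3 ± 3.91% (SD, n = 5). Similar differences were seen among the loci with a series-wide score of 20 or more, of which there were 28 on X and 385 on the autosomes. This cut did not make the scores alike. The median series-wide score of these loci was 45.2 on X, against 28.2 ± 0.69 (SD, n = 5). There the median replicate 1 width was 1974.5 bp on X, against 2586 ± 198 bp (SD, n = 5), and the median replicate 2 score was 3100, against 718 ± 116 (SD, n = 5). Below a series-wide score of 20, the 19 X loci were narrower still, with a replicate 1 width of 1297 bp against 2048 ± 101 bp (SD, n = 5), and their replicate 2 score was lower, at 97.9 against 226 ± 24.5 (SD, n = 5).

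The score of 3100 at which the replicate lists pile up, called the ceiling here, was reached by many X loci and few others. Of the 47 X loci in all 3 lists, 19 reached 3100 in replicate 2 (40.4%), against 1.93% over all chromosomes. In replicate 1, 10 reached it (21.3%), against 1.26%. The same 10 reached it in both, against 1.01% of loci on all chromosomes. Because scores stop near this value, the order of these loci among themselves is not known from the replicate lists.

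**Figure D2:**
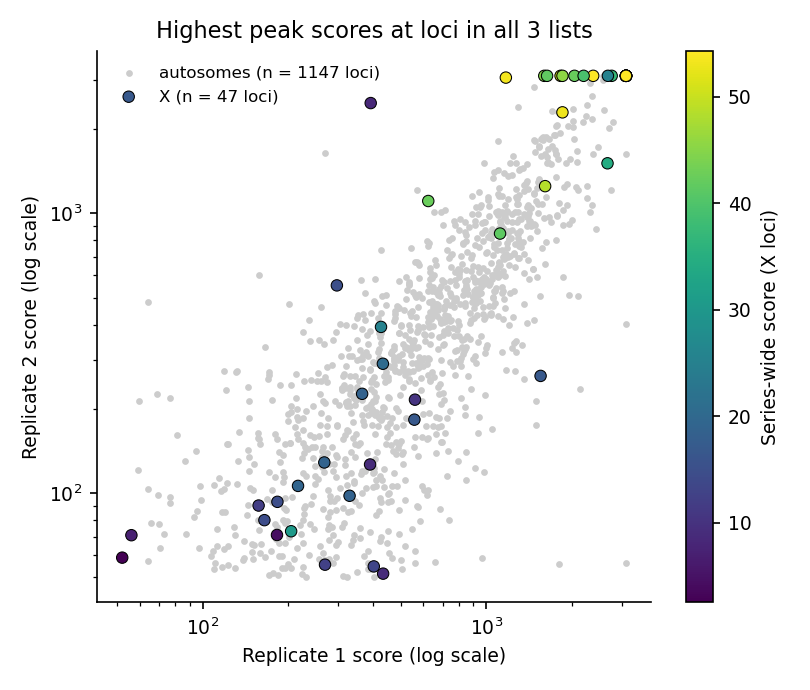
Each point is a locus present in all 3 lists, placed by its highest replicate 1 score and its highest replicate 2 score (both log scales), with 1147 autosomal loci in grey and 47 X loci coloured by series-wide score. The X loci run from scores of 52.1 and 58.8 in replicates 1 and 2 to 3100 in both, where 10 lie on the same spot.

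The X loci in all 3 lists covered a wide range of scores. Their replicate 1 scores ran from 52.1 to 3100 with quartiles of 347 and 2673, their replicate 2 scores from 51.6 to 3100 with quartiles of 116 and 3100, and their series-wide scores from 2.50 to 54.3 with quartiles of 14.8 and 45.8. The replicate 1 score was the higher of the 2 at 21 loci, the replicate 2 score was higher at 16, and both were 3100 at 10. Across the 47 loci, scores of the 2 replicates had a Spearman's rho of 0.89. Scores of replicate 1 and of the series-wide list had a rho of 0.80, and those of replicate 2 and the series-wide list 0.81. The series-wide list cannot be taken as independent of either replicate. These correlations run across loci of the same libraries, which are not independent samples.

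Of the 10 X loci with the highest series-wide scores, some were at the ceiling in both replicates and others scored well below it in replicate 1. The highest series-wide score of all, 54.34, was shared by 5 of them. The locus at X 1626102 to 1628180 scored 2375.5 in replicate 1 and 3100 in replicate 2, with peaks of 1756 and 2079 bp. The loci at X 2995856 to 2998083, X 8034929 to 8037653, X 14524435 to 14527675 and X 16055146 to 16057634 scored 3100 in both replicates. Their replicate 1 peaks were 2155, 2649, 2591 and 2198 bp wide in that order. The X 14524435 locus held 2 series-wide peaks, whereas the other 4 at this score held 1 each.

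The next 5 had series-wide scores between 50.95 and 53.49. At X 806023 to 807939 the series-wide score was 53.49, with a replicate 1 score of 1170.0 over 1313 bp and a replicate 2 score of 3055 over 1917 bp. At X 7181061 to 7182557 it was 53, with replicate scores of 1851 and 2295, so this locus and the preceding one were below the ceiling in both replicates. The locus at X 11092883 to 11096140, with a series-wide score of 52.42, and the locus at X 4207597 to 4210624, with 51.47, were at 3100 in both. At X 1343955 to 1346116 the series-wide score was 50.95, and the replicate 2 score of 3100 exceeded the replicate 1 score of 1823. Loci at the ceiling in both replicates without being among these 10 were X 6295402 to 6298104, X 9464562 to 9467258, X 11936289 to 11938353 and X 12361961 to 12364174, with series-wide scores of 42.34, 45.68, 45.84 and 38.65.

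Supported X peaks had higher scores than the other X peaks in each list, and outside replicate 2 they were also wider. In replicate 1 the median width was 1620 bp (quartiles 1295 and 2155) for the 47 supported peaks and 1222.5 bp (1097 and 1822.5) for the 122 others, a ratio of 1.33. In the series-wide list it was 367 bp (285 and 892) for 65 and 219 bp (176.5 and 264.5) for 123, a ratio of 1.68. In replicate 2 it was 1675.5 bp for 48, against 1615 bp for the other 3, too few to compare, and without replicate 1 the medians were 1669 and 1936 bp. The quartiles of the classes overlap in replicate 1 and do not in the series-wide list. This order of widths was not particular to X. On the autosomes the medians for supported and other peaks were 2183 and 1476 bp in replicate 1 and 401 and 233 bp in the series-wide list.

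Scores differed more than widths. The median replicate 1 score was 1170.0 for supported and 113 for other X peaks. In replicate 2 it was 1179 against 82.4, and in the series-wide list 18.7 against 5.58. The order of replicate 1 widths turned when each list was first cut to peaks at or above its own median score (274 in replicate 1). Support was then taken anew among the peaks left. The 28 X peaks supported in this way had a median of 2103.5 bp, and the others 2562 bp. Those others included the widest unsupported peaks and also peaks whose support was lost with the cut. This order also turned when support was taken from replicate 1 and the series-wide list alone, at 1278 bp for supported and 1545 bp for other replicate 1 peaks.

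**Figure D3:**
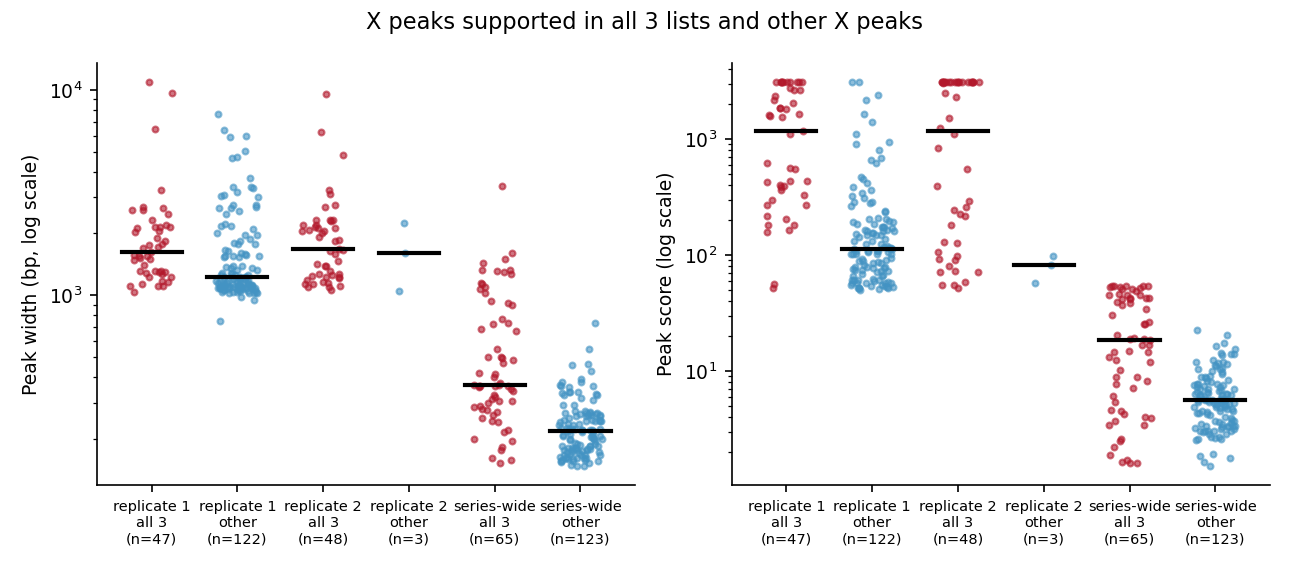
Points are the 408 X peaks by width in bp (left, log scale) and by score (right, log scale), in 3 lists, split into peaks supported in all 3 lists (red) and other X peaks (blue), and black lines mark medians. Other replicate 1 peaks have a median width of 1222.5 bp but include peaks up to 7627 bp, and their scores reach 3100.

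The unsupported X peaks with the highest scores were broad and came from replicate 1. They were X 108712 to 114711 and X 289358 to 295743, each with a score of 3100, followed by X 15806635 to 15811658 with 2388, X 9184528 to 9189211 with 2189 and X 14384313 to 14390194 with 1634. Their widths ran from 4684 to 6386 bp, and each stood in replicate 1 alone. Of the 7 unsupported X peaks of replicate 1 that were 4 kb or wider, 6 contained no series-wide peak, against 50% of the 70 such peaks on all chromosomes. Of the 115 narrower ones, 35 contained none. No share over all chromosomes is given here for narrower peaks, so this count is not read as a feature of X. These counts by width were chosen after the values were seen.

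The strongest unsupported peaks of the series-wide list were X 104609 to 104987 with a score of 22.48 and 379 bp, X 13995763 to 13996028 with 20.25, X 11948157 to 11948416 with 17.42, X 59163 to 59386 with 16.45 and X 10667851 to 10668109 with 15.40. The last 4 were between 224 and 266 bp wide, and the median of all unsupported series-wide X peaks was 219 bp. In replicate 2 the 3 unsupported X peaks were X 17135390 to 17137646 with 99.1, X 4221972 to 4223586 with 82.4 and X 15276310 to 15277355 with 57.2, all near the lowest score of the list.

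Peaks of the 2 replicates were closely centred on each other at the X loci in all 3 lists. The middles of the replicate 1 and replicate 2 peaks lay a median of 39.5 bp apart (interval of the median 25 to 72 bp, n = 47 loci), against 163 ± 19.4 bp over the 5 autosomes (SD of their medians). The middle of the replicate 1 peak lay a median of 43.5 bp from the middle of the strongest series-wide peak of its locus, against 213 ± 21.0 bp (SD, n = 5). For replicate 2 the distance was 50.5 bp, against 282.5 ± 30.9 bp (SD, n = 5). X had the smallest value of the 6 chromosomes in each of these measures. The replicate middles lay under 200 bp apart at 36 of the 47 X loci (76.6%), against 651 of 1147 autosomal loci (56.8%).

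The difference in centring was also present in subsets of these loci. As a share of peak width, the offset of replicate 1 was 2.69% on X, against 9.59 ± 0.80% (SD, n = 5). Among loci with 1 series-wide peak it was 34 bp on 40 X loci, against 161.5 ± 7.61 bp (SD, n = 5) on 837 autosomal loci. Among loci with a series-wide score under 20 it was 43.5 bp on X, against 194 ± 21.1 bp (SD, n = 5), so the close centring was not limited to the X loci with the highest scores. Without replicate 2 the offset of replicate 1 was 45.5 bp on the 128 X loci, against 163 ± 21.5 bp (SD, n = 5), and without replicate 1 the offset of replicate 2 was 47.5 bp on 49, against 274.5 ± 29.1 bp (SD, n = 5). No test was made of these differences, which rest on 1 X chromosome and the same 2 libraries.

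**Figure D4:**
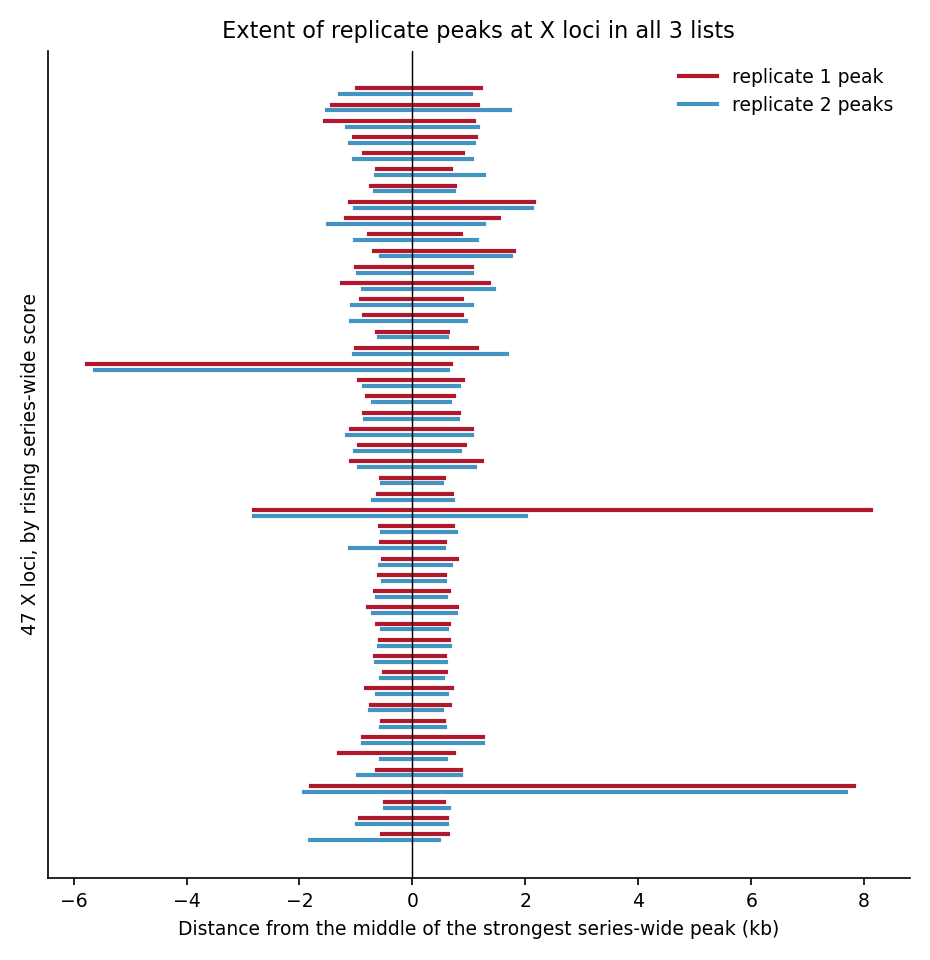
Each row is an X locus present in all 3 lists, with the extent of its replicate 1 peak (red) and replicate 2 peaks (blue) in kb from the middle of its strongest series-wide peak, in order of series-wide score from bottom to top. Most rows are short and symmetric, and 3 rows extend more than 5 kb to a side.

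The 3 widest X loci stood apart in their extent. The widest, X 16929093 to 16940014, covered 10922 bp, and its replicate 1 peak of 10915 bp, with a score of 2677, reached far beyond its replicate 2 peak of 4816 bp, with a score of 3100. It held the broadest series-wide peak on X, at 3390 bp. The next, X 5045024 to 5054766, covered 9743 bp and held 10 series-wide peaks, of which the strongest scored 8.22. Its replicate 2 score was 2477 and its replicate 1 score 391. By listed scores this was the largest difference in the direction of replicate 2. Differences at loci where replicate 2 was at the ceiling are not known in full. The third, X 1882811 to 1889248, covered 6438 bp with 4 series-wide peaks and scores of 2041 and 3100. All other X loci in all 3 lists were 3258 bp wide or less, and the loci at X 11092883 and X 14524435 completed the 5 widest.

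Loci in all 3 lists were spread over the length of X, with the most towards its ends. The first was X 142487 to 144062 and the last X 17543752 to 17546231. When X was divided into 10 equal parts, the leftmost held 13 of the 47 and the rightmost 8, while the sixth, X 8859345 to 10631213, held 1. The central part, X 5906230 to 11812459, held 9 of 47 (19.1%), against 45.4 ± 2.32% (SD, n = 5) of such loci on the autosomes. Without replicate 2 the central part held 24.2% of the shared X loci, against 40.0 ± 0.82% (SD, n = 5). Other X loci were also sparse there, at 38 of 154 (24.7%). The left part held 23 of the 47 loci and 59 of the 154 others, and the right part held 15 and 57.

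The central loci were few, and several were among the strongest. Of the 9 in the central part, 4 were at 3100 in both replicates, against 2 of 23 in the left part and 4 of 15 in the right part. Their median series-wide score was 42.3, against 30.5 in the left and 37.2 in the right part. In replicate 2 taken alone, 3100 was reached by 8 loci of the left, 4 of the central and 7 of the right part. These shares rest on few loci each.

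Neighbouring loci in all 3 lists lay a median of 238 kb apart (interval of the median 134 to 394 kb, 46 distances), with a range of 3.02 to 1629 kb. The other 154 loci were more numerous and lay a median of 65.7 kb apart (50.3 to 99.8 kb), with a range of 1.08 to 611 kb. A smaller number of loci on the same chromosome has longer distances whatever their arrangement, and the mean distances were 378 and 116 kb. Relative to its mean, the median was 0.63 for loci in all 3 lists and 0.57 for the others. Without replicate 2 the order turned, to 92.6 kb for shared loci and 138 kb for the others, as the shared loci then were the more numerous.

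The 5 longest stretches without a locus in all 3 lists each held other loci. The longest, 1629 kb, ran from the locus at X 9464562 to that at X 11092883 and held 10 other loci. The stretch before it, from X 8034929 to X 9464562, was 1429.6 kb with 8 others. Both are bounded by loci at the ceiling in both replicates. The next were 1212 kb from X 2995856 to X 4207597 with 7 others, 1211 kb from X 14524435 to X 15735983 with 13 and 1151 kb from X 12361961 to X 13513744 with 6.

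The shortest distances were in the left part and near the right end. The loci at X 1385549 to 1387676 and X 1388564 to 1390701 lay 3.02 kb apart, and their replicate 2 scores of 216 and 3100 differed widely. Those at X 16201741 to 16202878 and X 16205370 to 16206666 lay 3.71 kb apart with replicate 2 scores of 90.3 and 226. The loci at X 1445635 and X 1453527 lay 7.67 kb apart, those at X 142487 and X 162725 lay 20.2 kb apart, and those at X 1322575 and X 1343955 lay 21.8 kb apart. In all, 8 of the 46 distances were under 50 kb.

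The 9 distances between the 10 loci at the ceiling in both replicates had a median of 1530.3 kb and a mean of 1451 kb. So few loci have long distances on X whatever their arrangement, and the median relative to the mean was 1.05. The distances ran from 426 kb, between X 11936289 and X 12361961, to 2163 kb, between X 12361961 and X 14524435. Of the 9, 7 were 1 Mb or more. Between neighbours of this set lay from 3 to 18 X loci that were not in all 3 lists. The set was chosen for its scores after these were seen, and its spacing is a description. The nearest X locus of any class, which may itself be in all 3 lists, was a median of 18.4 kb (interval 9.90 to 38.4 kb) from a locus in all 3 lists and 28.0 kb (16.8 to 36.4 kb) from another locus. These intervals overlap, and 17 of 47 (36.2%) had a locus within 10 kb, against 46 of 154 (29.9%).

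**Figure D5:**
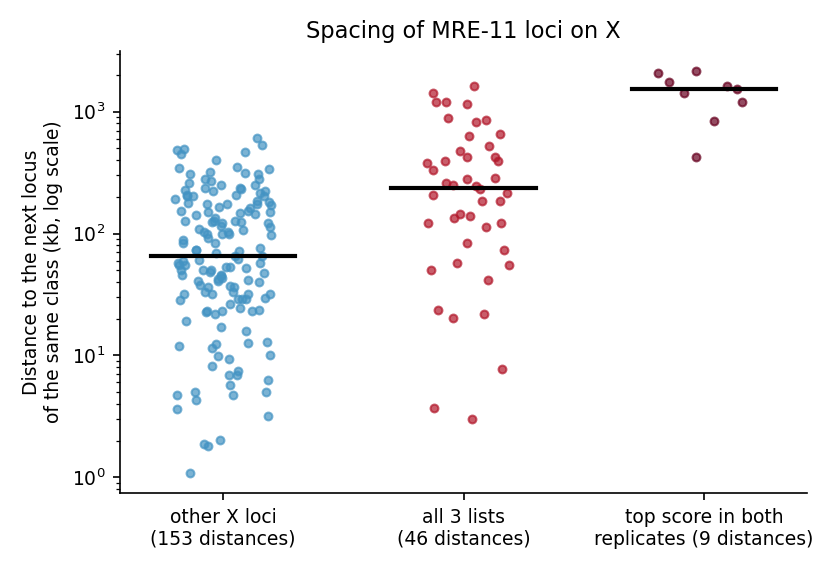
Points are distances in kb (log scale) from the middle of an X locus to that of the next locus of the same class, for other loci, loci present in all 3 lists and loci with the top score in both replicates, with medians as black lines. The medians are 65.7, 238 and 1530.3 kb.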

How the data were processed

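The authors' 3 peak lists were used as deposited. MACS is named as the caller inside the replicate files and MACS v2 inside the series-wide file. The genome is WormBase WS220 per the file headers, and ce10 per the submitters' processing notes, which also name the aligner BWA. The control input, any pooling of reads and tool versions beyond these are not given in the sources used here. Each deposited score is the caller's own value for that peak, with no scale named. Input libraries have no values used here, and sequences and gene annotation of the build were not used here.

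Samples were grouped by title. Supported peaks and loci were defined by 1 bp overlap, and the largest peak end stood for chromosome length. Medians carry 95% intervals from binomial order statistics (the range where peaks are too few), and shares carry exact Clopper-Pearson intervals. Work was done in Python 3.11.15 with numpy 2.4.6, pandas 2.3.3, scipy 1.17.1 and matplotlib 3.10.9, and the overlap functions were tested on simulated lists. Comparisons are descriptive, without tests. The peaks and measures were chosen with earlier results of these data known. Regions named were the 10 loci in all 3 lists with the highest series-wide scores, the 5 widest, the ends of the 5 longest and 5 shortest distances, the first and last, and the 5 strongest other peaks per list. The 4 further loci at the score ceiling in both replicates were added after their values were seen, as were the centring and score comparisons with the autosomes.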

Additional observations from a re-analysis of the deposited data

How the results depend on the processing

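No paired analysis was possible because the lists describe ChIP libraries of 1 group and no result comes from a test. Of 66 alternative values, 42 stayed within the interval of the reported value, or within 1.5 times for a count. With peaks at or above the median score of their list, the X loci in all 3 lists fell to 28, and support rose to 45.9% of replicate 1 and 100% of replicate 2 X peaks. Under the same choice, median widths were 2103.5, 2108.5 and 942 bp for supported peaks of replicate 1, replicate 2 and the series-wide list, and 2562 and 266 bp for other peaks of replicate 1 and the series-wide list. Median spacing became 610 kb for loci in all 3 lists and 109.9 kb for others, and the median top scores were 2287 (replicate 1) and 45.2 (series-wide). Over a middle 50% of X in place of the central part, the share was 27.7% for loci in all 3 lists and 35.1% for other loci. Only the latter left its interval, and a wider window cannot hold fewer loci. An overlap of 50% of the narrower peak, joining peaks within 1 kb, and leaving out 1 Mb at each end moved nothing beyond those limits. Leaving out a replicate list in turn gave from 49 to 128 shared X loci, support of 75.7% of replicate 1, 96.1% of replicate 2 and 35.1 to 83.5% of series-wide X peaks, and median spacing of 92.6 to 238 kb for shared and 82.4 to 138 kb for other loci. Median widths of supported peaks were 1278 bp (replicate 1), 1669 bp (replicate 2) and 266 to 366.5 bp (series-wide), and those of other peaks 1545, 1936 and 178 to 218.5 bp. Median top scores were 175 (replicate 1), 1107 (replicate 2) and 8.87 to 30.5 (series-wide), and central shares 18.4 to 24.2% for shared and 22.2 to 25.8% for other loci. Without replicate 2 far more loci count as shared. The results on top scores were added after the values were seen. Read depth is unknown, so it is not known how far the lower number of replicate 2 peaks reflects depth.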
